A study of Rattus norvegicus with 6 samples.

Results

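Genes that mark B cells were measured in whole blood of rats after a stroke model, at every probe set that the array annotation gives to 1 of 9 genes: Cd79a, Cd79b, Blnk, Ms4a1, Cd22, Cr2, Fcmr, Ebf1 and Pax5. Of these, 7 genes had 13 probe sets of their own, among 14224 genes and 31042 probe sets in all, whereas no probe set is annotated to Cd79a or Pax5. Another 3 probe sets carry Ebf3 and Ebf1 together and were kept apart. The blood came from male Sprague-Dawley rats, 8 weeks old, with 1 Affymetrix GeneChip array of the rat genome per rat. In the MCAO group (n = 3), a coated thread closed the origin of the left middle cerebral artery for a time and was then withdrawn. In the sham group (n = 3), the same operation was performed with an uncoated thread, so both groups had the neck arteries exposed, the common and external carotid arteries ligated and isoflurane anesthesia. Cardiac blood was collected 24 h after reperfusion began. The MCAO rats were chosen from a larger operated group for infarcts of similar size, so that they stand for that range of infarcts only.

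The B cell receptor consists of a membrane immunoglobulin that binds antigen and of the signaling chains Cd79a and Cd79b, whose cytoplasmic tails are phosphorylated when the receptor is engaged. The adaptor Blnk links the receptor-activated kinase Syk to phospholipase C and calcium entry. Ms4a1 (CD20) is a membrane protein of mature B cells, Cd22 is a sialic acid binding inhibitor of the receptor, Cr2 (CD21) binds complement fragments on antigen and lowers the threshold for activation, and Fcmr binds the constant part of IgM. Ebf1 and Pax5 are transcription factors that establish and maintain B cell identity and drive genes such as Cd79a. In whole blood, fewer B cells and less RNA of these genes per B cell cannot be told apart.

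Expression is given as the authors deposited it, in log2 units after the DFW (Distribution Free Weighted) method, which contracts differences between arrays. Values of all probe sets lay between 4.93 and 14.43, with a median of 5.56. The range of a probe set over the 6 arrays had a median of 0.00655 thousandths of a log2 unit, and only 168 of 31042 probe sets ranged over more than 10 thousandths. Values per rat are therefore given as the distance from the mean of the 6 rats, in thousandths of a log2 unit, and a difference between groups is MCAO minus sham in the same unit. These are differences on the DFW scale and no fold changes of the raw intensities. Because the contraction differs between probe sets, the sizes of differences at different probe sets are not comparable. A probe set was called by Rank Products, the test that the methods of the study name, at an estimated false discovery rate (FDR) under 0.05. No labels or files gave a scan date or another batch.

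RefSeq promoters of the GRCr8 build were at hand for 6 of the 9 genes, and the 250 bases before the start were searched on both strands. Shown are those of 2 downregulated receptor genes and of the adaptor gene. Capitals mark the E-box CANNTG, bound by E proteins such as Tcf3, the octamer ATGCAAAT, bound by Pou2f2, and TCCCNNGG, the core of the Ebf1 motif. The promoter of Cr2 lies at chr13:109244507-109244756 on the minus strand, that of Fcmr at chr13:44889430-44889679 on the plus strand and that of Blnk at chr1:249770534-249770783 on the minus strand.
Cr2: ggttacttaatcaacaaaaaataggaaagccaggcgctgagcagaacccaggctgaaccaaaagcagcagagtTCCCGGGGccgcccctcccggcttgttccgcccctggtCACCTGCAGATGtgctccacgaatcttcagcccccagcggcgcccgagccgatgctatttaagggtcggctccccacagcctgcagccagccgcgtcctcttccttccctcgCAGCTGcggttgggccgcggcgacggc
Fcmr: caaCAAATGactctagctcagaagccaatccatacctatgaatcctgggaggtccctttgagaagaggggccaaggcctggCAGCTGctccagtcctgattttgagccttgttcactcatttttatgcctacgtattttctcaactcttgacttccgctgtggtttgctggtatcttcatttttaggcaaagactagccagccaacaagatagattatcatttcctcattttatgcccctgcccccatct
Blnk: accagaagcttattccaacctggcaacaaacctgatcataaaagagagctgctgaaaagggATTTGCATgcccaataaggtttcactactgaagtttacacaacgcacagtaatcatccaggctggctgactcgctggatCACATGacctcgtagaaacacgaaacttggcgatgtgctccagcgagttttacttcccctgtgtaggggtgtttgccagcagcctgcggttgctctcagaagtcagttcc
The E-box was found in all 6 promoters, as in 65.5% of 33469 rat promoters, and Cr2 held 3 copies. The octamer was found in Blnk alone, at positions -189 to -182 from the start on the minus strand, where 1.56% of all promoters hold it. The core TCCCNNGG was found in Cr2 alone (17.8% of all promoters), at positions -177 to -170, where it overlaps a match of the ETS core GGAA. The full Ebf1 motif, in which GA follows this core directly, was found in none of the 6 (0.738% of all promoters), and GGAA in all 6 (93.2% of all promoters). Such matches describe letters and no binding.

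At all 13 probe sets the MCAO group had the lower mean, and 4 of them were downregulated by Rank Products, at Ms4a1, Fcmr, Cr2 and Ebf1. None of the 13 was upregulated. Among all probe sets, 0.606% were downregulated, 0.129% were upregulated and 46.6% had the lower mean in the MCAO group (50.2% of all genes). Counted once per gene, at the probe set with the highest mean, 3 of 7 genes were downregulated (Ms4a1, Fcmr and Cr2), where 0.942% of all genes were, and none was upregulated (0.134% of all genes). For 5 of the 7 genes the MCAO rats were all below the sham rats, as for 4.11% of all genes. They were Ms4a1, Fcmr, Cr2, Cd79b and Ebf1, whereas the groups overlapped for Blnk and Cd22. By probe set, 6 of 13 were so separated (3.60% of all probe sets), and none was separated above (4.82% of all probe sets and 4.43% of all genes). The genes were chosen with earlier results of these data known. The counts beside these shares therefore describe the genes and test nothing. After quantile normalization of the arrays 0 of the 7 genes (0.689% of all genes) and 1 of the 13 probe sets, Ebf1 1392619_at (0.515% of all probe sets), were separated below, and with the arrays centred on their medians 4 genes (0.766%) and 5 probe sets (0.512%). By limma no probe set on the array was called (adjusted p = 1 for each of the 13), whereas after quantile normalization limma called 62 probe sets, none of them among the 13 (lowest adjusted p = 0.6505). In the deposited values 2 of the 13 had an unadjusted p under 0.05 with the lower mean in the MCAO group (1.59% of all probe sets, and 3.70% in either direction), and the exact permutation test cannot go below p = 0.1 with 3 rats against 3.

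**Figure D1:**
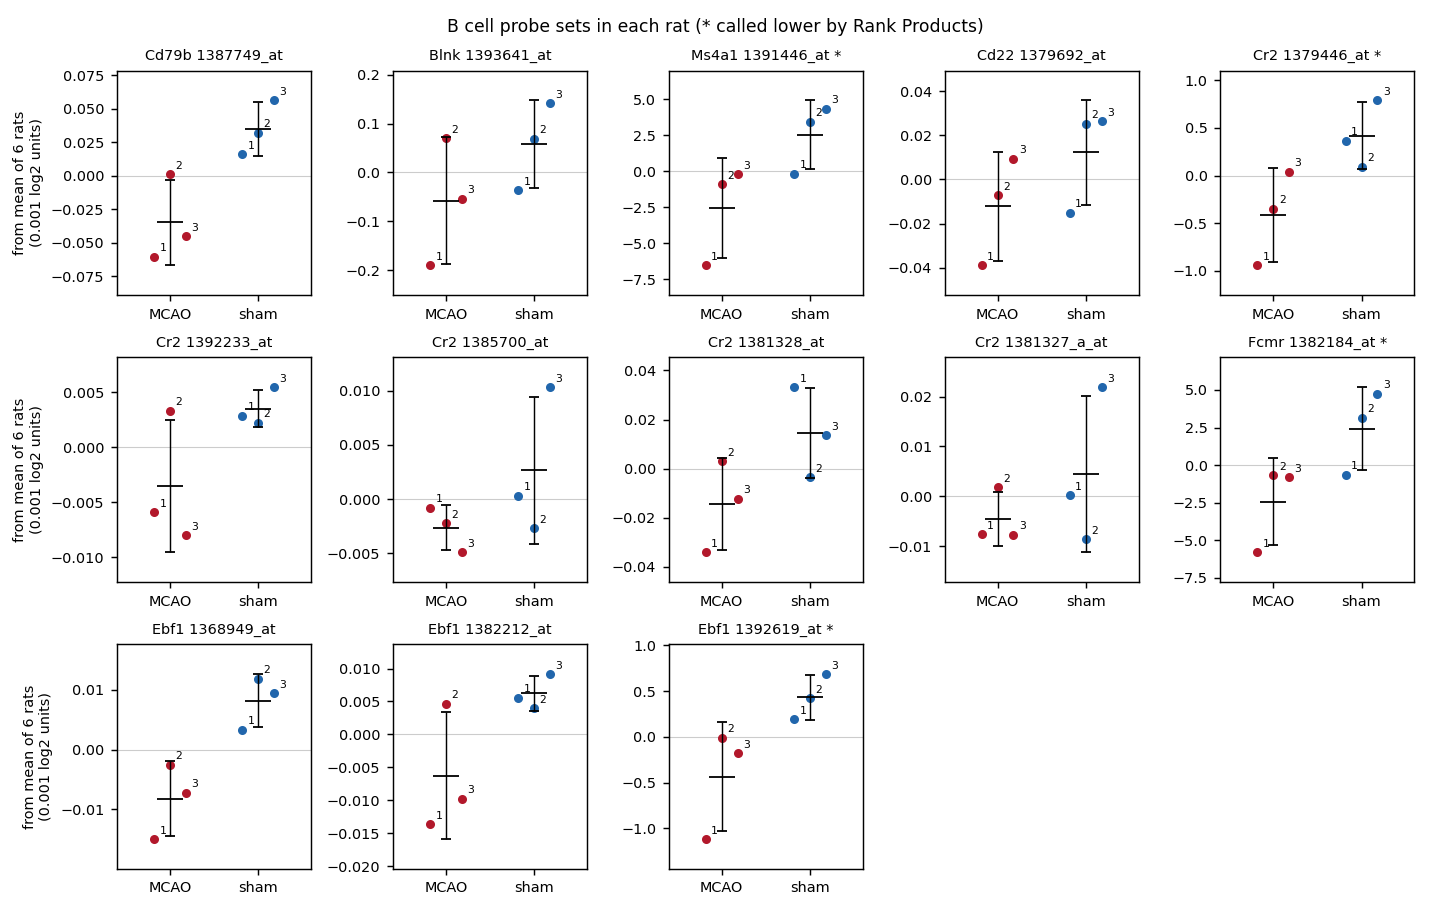
Distance from the mean of the 6 rats (y axis, thousandths of a log2 unit, with a scale of its own in each panel) at 13 B cell probe sets, with a digit for each rat, numbered within its group, and bars for the mean and SD (n = 3). MCAO rat 1 is the lowest point in 10 of the 13 panels, and the groups do not overlap in 6 of them.

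Among the surface genes, Ms4a1 and Fcmr had the widest spread and nearly the same profile. Ms4a1, at 1391446_at, had a mean level of 6.33 over all rats. It lay at -6.53, -0.885 and -0.209 thousandths from the mean in MCAO rats 1 to 3, against -0.172, 3.44 and 4.36 in sham rats 1 to 3. MCAO rat 1 was thus far below the rest, while sham rat 1 was level with MCAO rats 2 and 3, and the gap between the groups was 0.333% of the whole range. The difference was -5.09 thousandths (SE 2.29, FDR 0.00414), with an exact permutation p = 0.1, the smallest possible.

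Fcmr, at 1382184_at, had a mean level of 7.33. The MCAO rats lay at -5.79, -0.653 and -0.823 thousandths, against -0.627, 3.15 and 4.75 in the sham rats. Again MCAO rat 1 stood far below, sham rats 2 and 3 stood above, and sham rat 1 was level with the other MCAO rats, with a gap of 0.252% of the range. The difference was -4.85 thousandths (SE 2.18, FDR 0.005, exact permutation p = 0.1). Fcmr and Ms4a1 had a Pearson correlation of 0.991 over the 6 arrays, which they share as arrays and therefore in everything that sets 1 array apart.

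Cr2, the complement receptor, had 5 probe sets that spread over very different ranges. At 1379446_at, the one with the highest mean (5.88), MCAO rats lay at -0.944, -0.347 and 0.041 thousandths, against 0.368, 0.0911 and 0.790 in sham rats. The groups did not overlap, although MCAO rat 3 and sham rat 2 were 0.0501 thousandths apart. The difference was -0.833 thousandths (SE 0.330, FDR 0.0450, exact permutation p = 0.1). The other 4 probe sets had mean levels from 5.30 to 5.62 and ranges from 0.0135 to 0.0673 thousandths, against 1.73 at 1379446_at. Their differences were -0.0289 (SE 0.0142) at 1381328_at, -0.00899 (SE 0.00902) at 1381327_a_at, -0.00703 (SE 0.00341) at 1392233_at and -0.00528 (SE 0.00387) at 1385700_at. None of these 4 was called (FDR from 0.559 to 1), and the groups overlapped at each of them. At 1381327_a_at a sham rat, number 2, was the lowest of the 6. Without sham rat 3 the difference there was -0.000305 and that at 1385700_at -0.00145, without sham rat 2 they were -0.0156 and -0.00794, and without MCAO rat 1 that at 1381328_at was -0.0190.

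Cd22, the inhibitory receptor, was measured at 1379692_at with a mean level of 6.40 and was not called. MCAO rats lay at -0.0389, -0.00719 and 0.00942 thousandths, against -0.0150, 0.0253 and 0.0264 in sham rats. MCAO rat 1 was again the lowest and sham rat 3 the highest, but sham rat 1 lay below MCAO rats 2 and 3. The difference was -0.0244 thousandths (SE 0.0185, FDR 0.890, exact permutation p = 0.3), and it was -0.0111 without MCAO rat 1 and -0.0380 without sham rat 1.

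Of the receptor complex itself, Cd79b was measured at 1387749_at with a mean level of 6.48. MCAO rats lay at -0.0606, 0.0010 and -0.0450 thousandths, against 0.0162, 0.0321 and 0.0562 in sham rats. No rat crossed between the groups, and the gap was 13.0% of the range, wider in proportion than for Ms4a1, Fcmr or Cr2. The difference of -0.0697 thousandths had an SE of 0.0206 and a ratio to it of -3.39, with an unadjusted limma p of 0.0227 (adjusted p = 1), and Rank Products did not call it (FDR 0.278). Blnk, the adaptor, had a mean level of 5.76 at 1393641_at. Its MCAO rats lay at -0.190, 0.0704 and -0.0541 thousandths, against -0.0368, 0.0692 and 0.141 in sham rats. MCAO rat 2 was level with sham rat 2, so the groups overlapped, and the difference of -0.116 thousandths (SE 0.0859) was not called (FDR 0.469, exact permutation p = 0.3). It was -0.0498 without MCAO rat 1, -0.180 without MCAO rat 2, where the groups no longer overlapped, and -0.0742 without sham rat 3.

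Ebf1, the transcription factor, gave different calls at its 3 probe sets. At 1392619_at, with a mean level of 5.63, MCAO rats lay at -1.12, -0.00803 and -0.179 thousandths, against 0.194, 0.423 and 0.685 in sham rats. The groups did not overlap, with a gap of 11.2% of the range, and the difference was -0.868 thousandths (SE 0.350, FDR 0.0426, exact permutation p = 0.1). At 1368949_at, with the highest mean (5.80), the whole range was 0.0269 thousandths, against 1.80 at 1392619_at. There the MCAO rats lay at -0.0150, -0.00251 and -0.00720 thousandths, against 0.00331, 0.0119 and 0.00945 in sham rats. The gap was 21.7% of this range, the widest in proportion of the 13 probe sets, and the difference of -0.0164 thousandths had an SE of 0.00418 and a ratio to it of -3.93, with an unadjusted limma p of 0.0135 (adjusted p = 1). Rank Products did not call it (FDR 0.633). At 1382212_at, with a mean level of 5.78, the difference was -0.0125 thousandths (SE 0.00544, FDR 0.876), and MCAO rat 2 at 0.00467 thousandths was just above sham rat 2 at 0.00399. The 3 probe sets annotated to Ebf3 and Ebf1 together had ranges from 0.0009 to 0.0139 thousandths, overlapped between the groups and were not called.

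**Figure D2:**
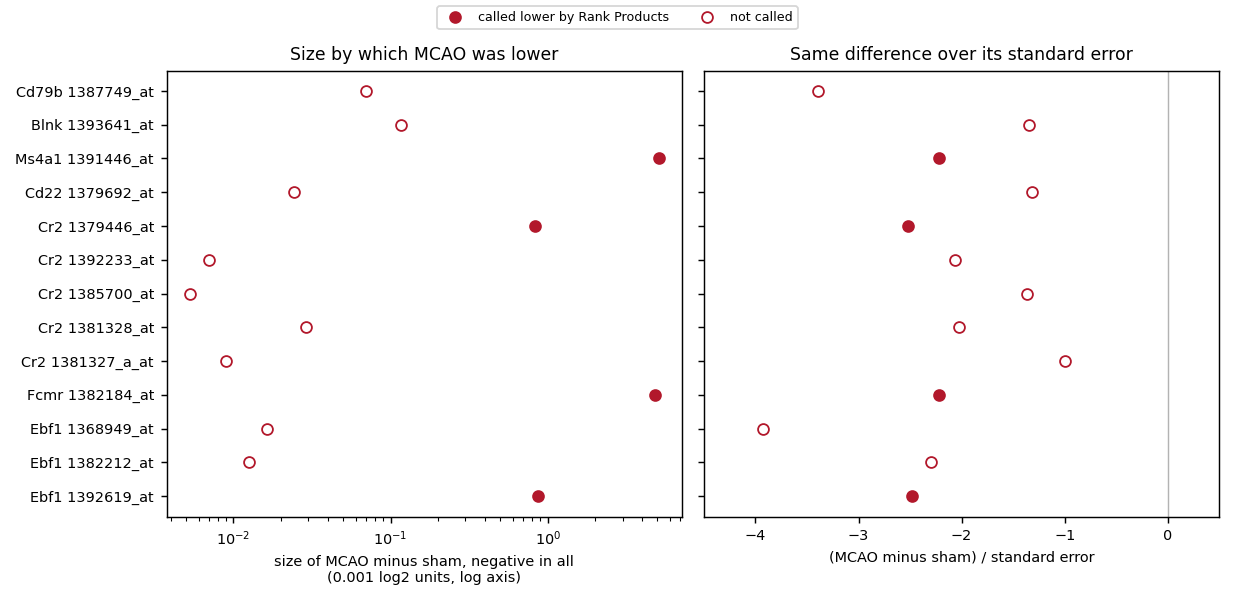
Size of the MCAO minus sham difference (left, thousandths of a log2 unit, log axis, negative at every probe set) and the same difference divided by its SE (right) at 13 B cell probe sets, with filled points for those called by Rank Products. The called probe sets have the 4 largest differences on the left, while on the right the uncalled Ebf1 1368949_at (-3.93) and Cd79b (-3.39) lie farthest from 0.

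Which B cell probe sets were called followed the spread of the probe set. Rank Products ranks differences as they are, and the 4 called ones had the 4 widest ranges of the 13. All 4 were among the 1000 widest of the array, where 18.6% were downregulated, 9.10% were separated below and 80.1% had the lower mean in the MCAO group, and the other 9 were not among these 1000. Over the 13 probe sets the differences ran from -5.09 to -0.00528 thousandths, on a scale that contracts each probe set differently, while the difference over its SE ran from -3.93 to -0.997 with a median of -2.22. Over all probe sets the median of this ratio was 0.0809. With every probe set scaled to unit SD, Rank Products called none of the 13 (FDR 1 for the 4).

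**Figure D3:**
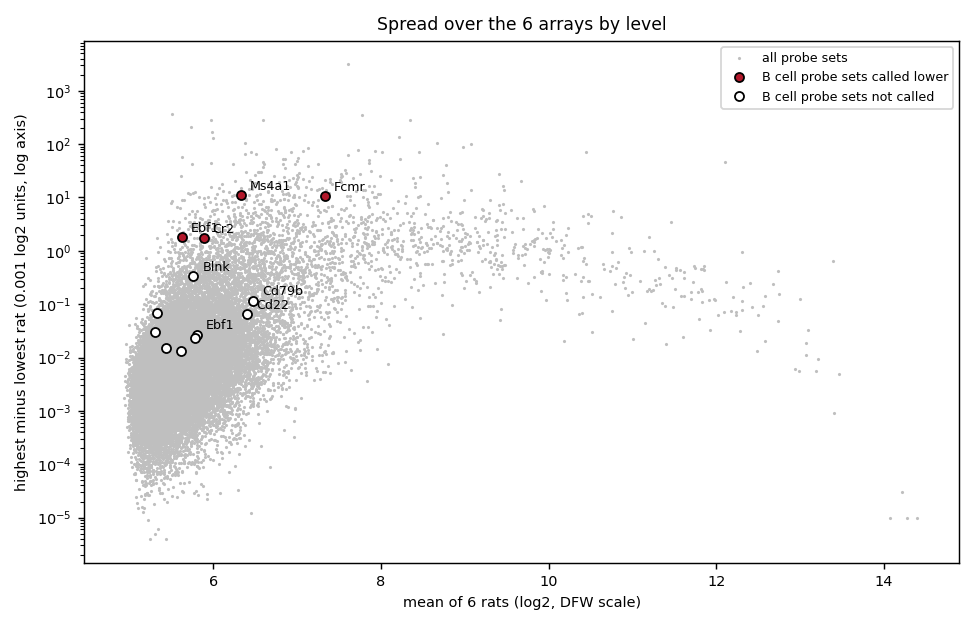
Highest minus lowest rat (y axis, thousandths of a log2 unit, log axis) against the mean of the 6 rats (x axis, log2) for all probe sets in grey and the 13 B cell probe sets as large points, filled where called. Ms4a1 and Fcmr range over 10.9 and 10.5 thousandths, and the called probe sets of Ebf1 and Cr2 over 1.80 and 1.73, whereas the uncalled B cell probe sets range over at most 0.332.

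The 7 genes followed a common profile over the rats. On a scale where each gene has a mean of 0 and an SD of 1, their average was -1.54, -0.129 and -0.285 in MCAO rats 1 to 3, against 0.0258, 0.766 and 1.16 in sham rats 1 to 3. These averages of MCAO rats 2 and 3 and sham rat 1 were close together, and the distance between the groups lay mainly in MCAO rat 1 on one side and sham rats 2 and 3 on the other. MCAO rat 1 was the lowest rat in 7 of the 7 genes, where it was in 3299 of all 14224 genes. By probe set it was the lowest in 10 of 13, and in 19.5% of all probe sets and 58.6% of the 1000 widest. Sham rat 3 was the highest rat in 6 of the 7 genes, where it was in 2640 of all 14224 genes. It was the highest in 11 of the 13 probe sets, and in 17.7% of all probe sets and 37.5% of the 1000 widest. By probe set, sham rat 2 or 3 was the highest in 12 of 13, where it was in 32.5% of all probe sets and 59.7% of the 1000 widest. The part that single arrays have in the result was tested only by leaving them out. Without MCAO rat 1 all 13 differences were still negative, Ms4a1 being at -3.09, Fcmr at -3.16, Cr2 1379446_at at -0.569 and Ebf1 1392619_at at -0.528 thousandths. Of the 13 probe sets 4 were called, while the downregulated among all probe sets rose from 188 to 254. Without sham rat 2 or without sham rat 3 all 13 were negative as well, with Ms4a1 at -4.64 and -4.18 thousandths, but none was called, while the downregulated among all probe sets dropped to 21 and 12. Without MCAO rats 1, 2 and 3 in turn, 6, 10 and 6 of the 13 probe sets were separated below, where 9.14%, 6.76% and 9.63% of all probe sets were, and without sham rats 1, 2 and 3 in turn 7, 9 and 6, where 10.3%, 6.76% and 6.36% were. Without MCAO rat 2 the call of Cr2 was lost (FDR 0.0544), and without sham rat 1 those of Cr2 (FDR 0.252) and Ebf1 (FDR 0.213).

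**Figure D4:**
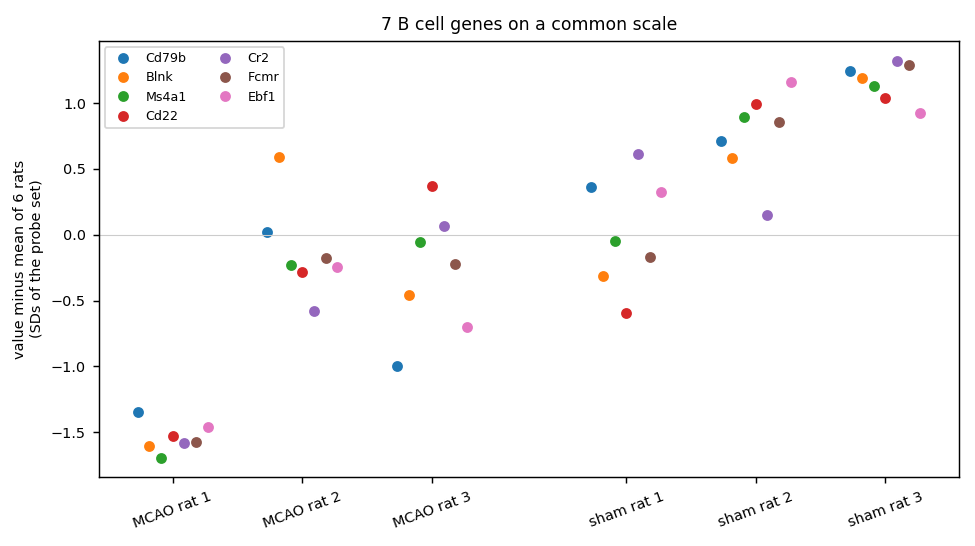
Value minus the mean of the 6 rats in SDs of the probe set (y axis) for 7 B cell genes in each rat (x axis), at the probe set with the highest mean of each gene. All 7 genes are lowest in MCAO rat 1, in MCAO rats 2 and 3 and sham rat 1 the genes scatter on both sides of 0, between -0.998 (Cd79b, MCAO rat 3) and 0.617 (Cr2, sham rat 1), and 6 of the 7 are highest in sham rat 3.

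Pearson correlations between the 7 genes over the 6 arrays ran from 0.696 (Cd79b and Cd22) to 0.991 (Ms4a1 and Fcmr), with a median of 0.883 over 21 pairs. Of 14217 other genes, the 5 with the profile most like the mean of the 7 were B3gnt5, a glycosyltransferase (r = 0.998), Nt5c, a nucleotidase (0.995), Rbm14, an RNA binding protein (0.991), Tmbim1 (0.991) and Rnf145, a RING finger protein (0.987), each over 6 arrays. B3gnt5 was downregulated with a difference of -4.09 thousandths (SE 1.85, FDR 0.00643). The other 4 had ranges from 0.0361 to 0.277 thousandths and were not called.

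Of 58 other genes listed for B cell receptor signaling 45 were measured, of which 2 were downregulated (4.44%, and 0.942% of all genes) and 43 passed the threshold in neither direction. Separated below were 2 of the 45 (4.44%, and 4.11% of all genes), and 30 had the lower mean in the MCAO group (66.7%, and 50.2% of all genes). The median difference over its SE was -0.412, against -0.00399 over all genes. The downregulated genes were Prkcb, the protein kinase C that connects the receptor to NF-kappaB, with -3.58 thousandths (SE 2.12, FDR 0.0183), and Akt2, a kinase downstream of phosphoinositide 3-kinase, with -1.39 (SE 0.528, FDR 0.0244). For Akt2 the groups did not overlap, and unlike in the B cell genes MCAO rat 1 was not the lowest, at 0.329 thousandths, against -1.15 and -1.26 in MCAO rats 2 and 3. For Prkcb MCAO rat 3 lay at 0.992 thousandths, above sham rat 1 at -0.215. Bank1, a scaffold of the receptor in B cells, was the only other gene of the list with every MCAO rat below every sham rat, at a difference of -0.0174 thousandths (SE 0.00454, FDR 0.586). Ppp3ca, a catalytic subunit of calcineurin, had the largest difference among the uncalled genes, -0.964 thousandths (SE 1.32). It was followed by Ifitm1, 1 of the 15 genes with the higher mean in the MCAO group, with 0.874 (SE 3.04). Of 8 measured inhibitors of the receptor none was called or separated, 6 had the lower mean in the MCAO group and 2 the higher. Fcgr2b, the inhibitory Fc receptor, had a difference of -0.374 thousandths (SE 0.599), Ptpn6, the phosphatase SHP-1, of -0.127 (SE 0.208) and Csk, a kinase that restrains Src kinases, of -0.0989 (SE 0.0672).

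Other B cell surface genes were measured at 11 of 22 listed genes, and none was called (0.942% of all genes were downregulated). The MCAO mean was lower for 8 of the 11 (72.7%, and 50.2% of all genes). It was higher for 3, Cxcr5 (0.0294 thousandths, SE 0.0348), Fcrla (0.000593, SE 0.0162) and P2rx5 (0.000738, SE 0.00245). For 3 of the 11 the MCAO rats were all below the sham rats (27.3%, and 4.11% of all genes). Fcer2 (CD23), the low affinity IgE receptor of mature B cells, had -0.424, -0.0851 and -0.179 thousandths in MCAO rats, against 0.183, 0.145 and 0.359 in sham rats. Its groups were separated by 29.4% of the range, and the difference was -0.458 thousandths (SE 0.113, FDR 0.0673). The others were Cd83, an activation marker, with -0.0428 thousandths (SE 0.0135), and Cd24, with -0.00951 (SE 0.00543), where the gap was 0.0587% of the range. Cd37, a tetraspanin, had -0.615 thousandths (SE 0.418) and Ltb, lymphotoxin beta, -0.567 (SE 0.714), and their groups overlapped.

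Among other transcription factors of B cells, 2 of 15 measured genes were downregulated (13.3%, and 0.942% of all genes). None was upregulated (0.134% of all genes). The MCAO mean was lower for 11 of the 15 (73.3%, and 50.2% of all genes) and higher for 4. Ets1, with -8.65 thousandths (SE 4.996, FDR 0.00419), and Klf2, with -7.56 (SE 7.96, FDR 0.0449), are also expressed in T cells, and the groups overlapped for each of them. Pou2af1, the coactivator of octamer binding factors in B cells, was the 1 gene of this list with every MCAO rat below every sham rat (6.67%, and 4.11% of all genes). It lay at -1.01, -0.0210 and -0.0682 thousandths in MCAO rats, against 0.312, 0.0890 and 0.703 in sham rats, with a difference of -0.736 (SE 0.348, FDR 0.0523). Of 7 measured early B cell genes none was called or separated, and Bst1 (-0.420, SE 3.55), Il7r (-0.00615, SE 0.0142) and Kit (0.00328, SE 0.00175) had the largest differences. Genes of plasma cells, the antibody-secreting stage, ran the other way in sign. The mean was higher in the MCAO group for all 8 measured, as for 7089 of all 14224 genes. Among the 8 were Xbp1 (0.0674 thousandths, SE 0.192), Mzb1 (0.00112, SE 0.00403) and Sdc1 (0.000977, SE 0.000862). Each of the 8 overlapped between the groups, none was called, and the median difference over its SE was 0.341. Their median range was 0.00251 thousandths, against 0.00886 over all genes. Averaged over the 8 in SDs of each gene, sham rat 3 lay at -0.815 and the other rats between 0.0372 and 0.320.

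Markers of other blood cells also differed among the rats, and their part in the B cell result was not tested. Of all genes, 0.942% were downregulated and 0.134% upregulated, 4.11% were separated below and 4.43% above, and 50.2% had the lower mean. Of T cell markers 3 of 21 were downregulated (Tcf7, Satb1 and Cd3g), 2 were separated below and 17 had the lower mean. Averaged over the 21 genes in SDs of each gene, they ran from -1.12 to 0.264 in MCAO rats, against -0.0371 to 0.719 in sham rats. Of NK and cytotoxic cell markers 2 of 16 were downregulated (Ccl5 and Prf1), none was separated and 14 had the lower mean, with averages from -0.884 to 0.4996 in MCAO rats, against -0.153 to 1.14 in sham rats. Erythroid markers had the lower mean in 13 of 13 genes, with 1 downregulated (Tfrc) and none separated, and averages from -0.676 to -0.178 in MCAO rats, against -0.533 to 1.06 in sham rats. Of 13 monocyte markers Cd36 was downregulated, none was separated and 6 had the lower mean, with averages from -0.561 to 0.612 in MCAO rats, against -0.350 to 0.525 in sham rats. Of 12 neutrophil markers 2 were upregulated (Csf3r and Il1r2) and S100a9 was called lower although its mean was higher by 2.71 thousandths (SE 27.8). Of the 12, 1 was separated above (Il1r2), none below, and 4 had the lower mean, with averages from -0.344 to 1.18 in MCAO rats, against -0.530 to 0.124 in sham rats. Of 10 platelet markers 2 were upregulated and separated above (Slc18a2 and Rab27b), none was separated below and 1 had the lower mean, with averages from -0.427 to 1.56 in MCAO rats, against -0.843 to 0.158 in sham rats. For the 7 B cell genes the averages ran from -1.54 to -0.129 in MCAO rats, against 0.0258 to 1.16 in sham rats, without overlap. Those of the 11 other B cell surface genes did not overlap either, at -0.902 to -0.0873 in MCAO rats, against 0.0375 to 0.586 in sham rats. Those of the 8 plasma cell genes did not overlap in the opposite order, at 0.176 to 0.320 in MCAO rats, against -0.815 to 0.0957 in sham rats. Averaged in thousandths without scaling, both of these lists overlapped between the groups. The surface genes reached 0.0799 in MCAO rats and began at 0.0216 in sham rats. The plasma cell genes ran from -0.0345 to 0.0387 in MCAO rats, against -0.0221 to 0.0251 in sham rats. No marker can be given as absent, since the values hold no background estimate. No test was made between lists, which hold unequal numbers of genes.

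**Figure D5:**
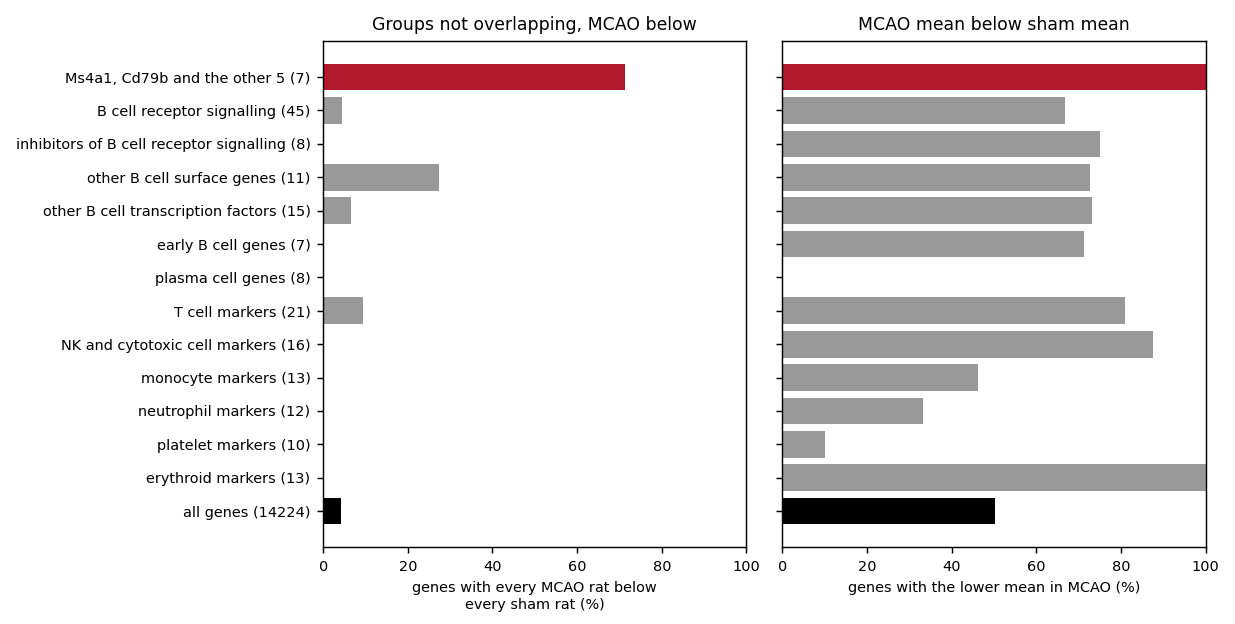
Share of genes with every MCAO rat below every sham rat (left, %) and with the lower mean in the MCAO group (right, %) for the 7 B cell genes (red), other lists of B cell and blood cell genes (grey) and all genes (black), with the number of measured genes in parentheses. The 7 B cell genes reach 71.4% on the left, where all genes have 4.11%, while on the right the erythroid markers reach 100% as the B cell genes do. The genes and lists were chosen with earlier results of these data known, so the shares are a description and no test.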

How the data were processed

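Whole-blood RNA of 3 MCAO and 3 sham rats was hybridized to 6 arrays. The authors normalized the CEL files together with DFW in R and deposited the normalized log2 values, 1 for each array and probe set, with no stated filter. The log base was taken from the range of the values, since none is stated. DFW contracts differences between arrays unequally, which sets the ranks that Rank Products uses. The values hold no background estimate, so detection cannot be given, and precision is limited by the 6 arrays.

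Control probe sets (57) were left out of 31099. Rank Products was run in Python 3.11.15 with numpy 2.4.6 on the 9 pairwise differences (MCAO array minus sham array), with ranks from 100 random shufflings of probe sets, array by array. limma 3.58.1 in R 4.3.3 gave differences, SEs and p-values adjusted by Benjamini-Hochberg over 31042 probe sets. The exact permutation test, two-sided, used all 10 splits into groups of 3. Both methods were tested on simulated data. Symbols came from the annotation of the array (20837 probe sets with 1 symbol, 425 with several and 9780 with none), and 20758 of the 20837 had a gene ID of the GRCr8 reference, including all 13 B cell probe sets. Named were all probe sets of the 9 genes, the called members and the 3 largest differences of each B cell list, the called genes of other cell lists, and the 5 genes most alike in profile. Bank1, Cd83 and Cd24 were named besides, for groups that did not overlap, after their values were seen. Ifitm1, Cxcr5, Fcrla and P2rx5 were named in the same way, for a higher mean in the MCAO group. The genes and lists were chosen with earlier results of these data known. Alternatives were limma, an intensity trend, replicate blocks, an FDR of 0.01, rank sums, scaling to unit SD, control probe sets kept, the brighter probe sets, quantile normalization, median centring, leaving out each rat and other choices among the probe sets of a gene.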

Additional observations from a re-analysis of the deposited data

How the results depend on the processing

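All 78 differences of the 13 B cell probe sets with 1 rat left out kept their sign, whereas of 26 under the 2 settings that rescale the arrays 15 did, 10 turned and 1 became 0 (Ebf1 1368949_at after quantile normalization). The other settings leave the differences as they are. After quantile normalization, which ties many contracted values, Cd22 (0.0332 thousandths), Cr2 1385700_at (0.0264) and Ebf1 1382212_at (0.00479) turned higher. Centring arrays on the median adds the same 0.0298 thousandths to every difference, more than the median range of a probe set (0.00655), so every negative difference smaller than this turns by construction, and Cd22 (0.00535), Cr2 1392233_at (0.0228), 1385700_at (0.0245), 1381328_at (0.000932) and 1381327_a_at (0.0208) and Ebf1 1368949_at (0.0133) and 1382212_at (0.0173) did so. The 4 called probe sets kept their sign in both.

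Of the 7 B cell genes, 5 were separated below, against 0 after quantile normalization (0.689% of all genes) and 3 where all probe sets of a gene were required, and of the 13 probe sets 6, against 1 after quantile normalization (0.515% of all probe sets). Leaving out 1 rat gave 5 to 6 genes and 6 to 10 probe sets, the 10 without MCAO rat 2, although fewer rats separate more easily. No share of all genes was counted with a rat left out or where all probe sets of a gene were required.

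The counts of downregulated B cell genes (3), B cell probe sets (4), receptor signaling genes (2), other B cell genes (2) and all probe sets (188), and of upregulated probe sets (40), were all 0 by limma, with an intensity trend, with the replicate block and with scaling to unit SD (1150 probe sets had an unadjusted limma p under 0.05). After quantile normalization limma called 62 probe sets, none of the 13. By Rank Products after quantile normalization they were 2 B cell probe sets, 1 receptor signaling gene, 1 other B cell gene and 81 downregulated probe sets, and among the brighter probe sets 2, 1, 1 and 90. At an FDR of 0.01 they were 2, 0, 1 and 52. Rank sums gave 1 receptor signaling gene and 19 upregulated probe sets. Requiring all probe sets of a gene gave 0 receptor signaling genes and 1 other B cell gene. Whether rats of the same number share more than that number cannot be told from 3 rats per group. Their deviations from the group means correlated at 0.211, 0.0400 and 0.0661, against -0.232 to 0.166 between rats of different number. Leaving out 1 rat gave 0 to 3 B cell genes, 0 to 4 B cell probe sets, 0 to 3 receptor signaling genes, 0 to 3 other B cell genes, 12 to 338 downregulated probe sets and 14 to 56 upregulated ones. The B cell counts, receptor signaling and other B cell genes included, were 0 without sham rat 2 or 3, and that of receptor signaling genes also without sham rat 1. The other B cell genes were 1 without MCAO rat 1 or sham rat 1. The cause was not tested.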
